A study of Homo sapiens with 8 samples.

Results

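Doxycycline alone was examined in A172 cells that carry a control shRNA, as the comparison of 2 arrays of doxycycline-treated cells, shControl DOX(+), with 2 arrays of untreated cells, shControl DOX(-). These 4 of the 8 arrays of the series were chosen by their titles and treatment field, and the comparison covers the 16098 of 53617 transcript clusters that have exactly 1 gene symbol, which stand for 14884 genes. A172 is an established human glioblastoma line. The cells were stably infected with a pLKO Tet-on lentivirus that expresses the control shRNA when doxycycline is present, were selected with puromycin, and were kept without doxycycline or with 2.5 μg/ml doxycycline for 48 h. The other 4 arrays, used for the error estimate and for 1 comparison further down, are of A172 cells with the same vector carrying an shRNA against HDAC2, without doxycycline (shHDAC2 DOX(-)) or with it (shHDAC2 DOX(+)), 2 arrays each. By the labels and the methods, all 4 groups share the line, the vector and the selection. The shControl comparison holds the drug and the induced control shRNA together, and their effects cannot be told apart, since no uninfected cells were analysed here. The labels call the 2 arrays of a group biological replicates without naming separate cultures, so the p-values measure the spread between these arrays. In the 2 shControl DOX(+) samples, and likewise in the 2 shHDAC2 DOX(-) samples, 1 label field names the virus of the other construct. The groups here follow the titles and the treatment field. Were that other field right, the treated cells here would carry the shRNA against HDAC2 and the comparison would not be of doxycycline alone.

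Doxycycline is a tetracycline antibiotic that blocks the bacterial ribosome and, in animal cells, can also slow the ribosome of mitochondria. It chelates metal ions and inhibits matrix metalloproteases. In Tet-on vectors it binds a tetracycline-responsive repressor or activator and thereby turns on the inserted promoter, so cells with a control shRNA and the drug are the usual reference for an inducible knockdown. Immediate early genes, to which DUSP1 and EGR1 belong, are switched on within minutes by growth factors or serum, without new protein synthesis, through serum response factor and CREB bound at their promoters. PURPL is a long non-coding RNA induced by p53.

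The arrays, Affymetrix Human Gene 2.0 ST, read transcripts by hybridization to probes, and the deposited values are RMA signals on a log2 scale, on which a difference of 1 is 2-fold. HDAC2, the histone deacetylase that the other construct targets, read 6.42 and 6.30 in untreated and 6.14 and 6.15 in treated shControl cells. The treated arrays lay below the untreated ones, the log2 fold change being -0.21 (limma's standard error 0.142 and adjusted p = 0.956). A second cluster of HDAC2, of low signal (mean 2.35 over 8 arrays), had a log2 fold change of 0.02. In shHDAC2 cells HDAC2 read 5.69 and 5.80 without and 4.95 and 5.34 with doxycycline, so all 4 shControl arrays were above all 4 shHDAC2 arrays. Both shHDAC2 DOX(-) arrays, of the other group with the conflicting label field, were unlike the other 6, their Pearson correlations with them across clusters being 0.9500 to 0.9538. AHR and KRT18, named here for their large gaps, read 9.95 and 10.01, and 6.28 and 6.24, in these 2 arrays. In the other 6 arrays AHR read 2.64 to 2.77 and KRT18 9.97 to 10.70. Whether the 2 arrays are of the same line and culture as the other 6 was not tested. The HDAC2 signals of these 2 arrays lay between those of the shControl and the shHDAC2 DOX(+) arrays. The shControl fold changes do not use these 2 arrays, but limma's standard errors, intervals and p-values do, since the spread was estimated over all 8. Without them limma called 0 clusters too, 922 had an unadjusted p under 0.05, and the unadjusted p of MIR3189, named below, went from 0.00804 to 0.000633. Of the 11 measured glioma and astroglia markers, VIM (vimentin), EGFR and CD44 had log2 signals of at least 8.58 in all 4 shControl arrays, whereas GFAP, the astrocyte filament, read 4.53 to 4.70 and the water channel AQP4 2.20 to 2.66. The median of all rows of the table was 3.66.

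Between untreated and treated shControl cells, limma called 0 of 16098 transcript clusters at a Benjamini-Hochberg adjusted p under 0.05, which is 0% of those tested, and the smallest adjusted p was 0.550. At an unadjusted p under 0.05 there were 868 clusters, 492 higher with doxycycline (3.06% of those tested) and 376 lower (2.34%), where 805 would be 5% of all tests. The methods' t-test, an unpaired test on the same arrays, gave 995 clusters at an unadjusted p under 0.05 and 0 after adjustment. When the variance was allowed to follow the signal and was moderated robustly, limma called 1 cluster, DUSP1 (adjusted p = 0.0431). With 2 arrays a side, an exact permutation test of a single gene cannot go below p = 0.333.

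The treated and untreated arrays were as alike as replicates were. The 2 untreated arrays correlated at r = 0.9878 and the 2 treated arrays at 0.9884, and the 4 pairs of 1 treated and 1 untreated array at 0.9859 to 0.9911. The median absolute log2 difference over clusters was 0.135 and 0.132 within the groups and 0.124 to 0.152 between them. Over all clusters the 1st and 99th percentiles of the log2 fold change were -0.43 and 0.46, around a median of -0.0035. Only VTRNA1-1, a vault RNA named here after its value was seen, exceeded a 2-fold difference, with log2 signals of 5.86 and 5.20 untreated and 7.14 and 5.96 treated (log2 fold change 1.02, 95% interval 0.22 to 1.83). The gap between its 2 treated arrays was larger than its fold change.

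The absence of calls can be read with the width of the intervals. For 15902 clusters (98.8%) the whole 95% interval of limma lay within a 2-fold difference in either direction, and for 13253 (82.3%) it lay within 1.5-fold. The median interval reached 0.31 to either side of the estimate on the log2 scale. A difference of 2-fold in signal is thus outside the interval for nearly all of these clusters. No smaller difference of a single gene passed the adjustment at this number of arrays. Only 11057 of the 16098 clusters had a mean signal at or above the median of all rows, 3.66. For the dimmer rest a narrow interval need not bound a change in the RNA.

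**Figure D1:**
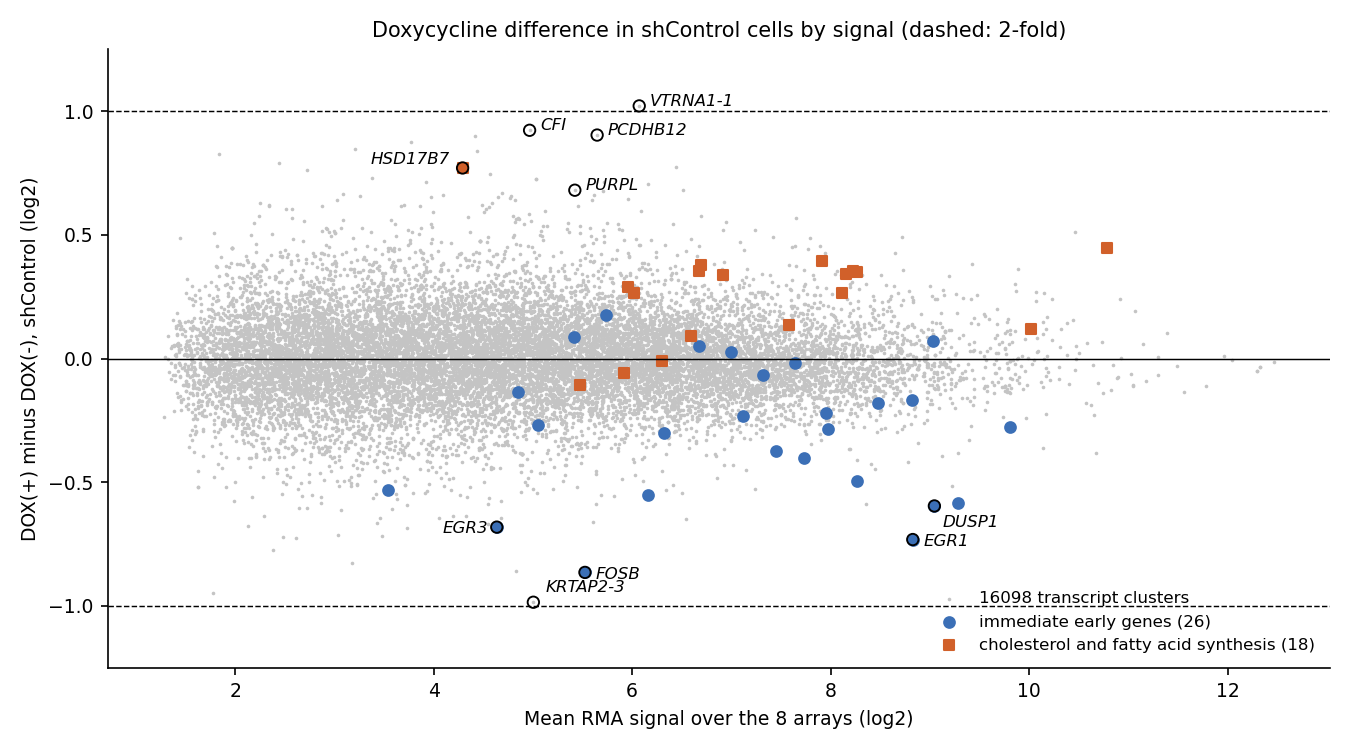
Log2 difference between treated and untreated shControl cells (vertical axis) against the mean log2 signal over the 8 arrays (horizontal axis) for the 16098 transcript clusters, with the 26 immediate early genes as blue circles, the 18 cholesterol and fatty acid synthesis genes as orange squares and 10 genes named. VTRNA1-1 alone lies beyond the dashed 2-fold lines, and the blue points lie mostly below 0 and the orange points mostly above it.

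The immediate early genes had mostly lower signals in the treated cells. Of the 26 measured genes of this list, 21 were lower and 5 higher, with a median log2 fold change of -0.27. At an unadjusted p under 0.05, 12 were lower, a call made in that direction in 2.34% of all clusters, and 0 higher, and limma called 0 of the 26 after adjustment over all clusters. In 18 of the 26 (69.2%) both treated arrays lay below both untreated arrays, as did 17.9% of all clusters, and in 1 (SGK1) both lay above, as in 17.9% of all clusters. Taken per array, the median deviation of the list from the mean of the 4 arrays was 0.12 and 0.16 in the untreated arrays. It was -0.15 and -0.12 in the treated ones. This median did not overlap between the groups, while some single genes of the list did. All genes of the list were read on the same 4 arrays and are not independent of each other. The count of 12 became 7 without shControl DOX(-) replicate 2 and 6 by the methods' t-test, while the median stayed between -0.31 and -0.24 with any 1 array left out.

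DUSP1, the phosphatase that switches off MAP kinases, read 9.17 and 9.09 in the untreated and 8.48 and 8.59 in the treated arrays. Both treated arrays were lower than both untreated ones by far more than replicates differed. The log2 fold change was -0.60 (95% interval -0.84 to -0.36, adjusted p = 0.550 from limma), a 1.51-fold lower signal.

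EGR1, a zinc finger transcription factor, read 9.36 and 9.64 untreated and 8.69 and 8.85 treated. Its groups did not overlap either, at a log2 fold change of -0.73 (limma's standard error 0.147 and adjusted p = 0.595). A second cluster of EGR1 at lower signal read 6.06 and 6.08 untreated and 5.44 and 5.37 treated, a log2 fold change of -0.66.

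FOSB, an AP-1 subunit, had the largest difference of the list, with signals of 5.47 and 5.92 untreated against 4.86 and 4.80 treated (log2 fold change -0.86, standard error 0.156, adjusted p = 0.550 from limma). Its untreated arrays were further apart than its treated ones, and its second cluster, whose arrays overlapped, had a log2 fold change of -0.13. EGR3, a relative of EGR1, read 5.13 and 4.83 untreated and 4.29 and 4.30 treated (log2 fold change -0.68). In the AP-1 gene FOSL1 the signals were 8.95 and 9.20 untreated and 8.36 and 8.63 treated (log2 fold change -0.59).

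None of these groups overlapped, which the rule that picked FOSB and EGR3 required. CSRNP1, a nuclear protein, differed by -0.55, KLF10, a zinc finger repressor, by -0.49, JUNB by -0.40 and IER2 by -0.38 on the log2 scale. FOS, the founding AP-1 member, differed by only -0.30 and JUN by -0.17. At the other end KLF4, KLF6 and DUSP2, a phosphatase related to DUSP1, had log2 fold changes of 0.09, 0.07 and 0.17, with overlapping arrays.

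The promoters of DUSP1, EGR1 and FOSB, the members with the 3 smallest p-values of the list, are shown because the factors that switch such genes bind within them. They are the 250 bases before and 50 after the RefSeq start site (GRCh38.p14), 5′ to 3′ along the gene, with capitals for TGACG, the core of the cAMP response element that CREB binds, on either strand, for the full element TGACGTCA, and for CArG boxes, the element of serum response factor.

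DUSP1 promoter (chr5:172771146-172771445, minus strand): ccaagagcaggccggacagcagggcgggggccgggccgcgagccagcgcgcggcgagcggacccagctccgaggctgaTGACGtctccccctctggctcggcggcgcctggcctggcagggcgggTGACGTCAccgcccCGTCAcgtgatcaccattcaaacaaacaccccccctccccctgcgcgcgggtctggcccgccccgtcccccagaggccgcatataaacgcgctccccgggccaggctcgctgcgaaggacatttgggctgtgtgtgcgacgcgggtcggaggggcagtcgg
EGR1 promoter (chr5:138465229-138465528, plus strand): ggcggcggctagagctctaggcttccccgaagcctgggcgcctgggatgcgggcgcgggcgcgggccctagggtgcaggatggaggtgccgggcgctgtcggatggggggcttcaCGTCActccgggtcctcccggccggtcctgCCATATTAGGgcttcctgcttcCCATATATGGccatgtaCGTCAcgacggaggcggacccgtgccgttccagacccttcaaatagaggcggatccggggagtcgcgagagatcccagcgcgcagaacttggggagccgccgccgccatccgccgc
FOSB promoter (chr19:45467746-45468045, plus strand): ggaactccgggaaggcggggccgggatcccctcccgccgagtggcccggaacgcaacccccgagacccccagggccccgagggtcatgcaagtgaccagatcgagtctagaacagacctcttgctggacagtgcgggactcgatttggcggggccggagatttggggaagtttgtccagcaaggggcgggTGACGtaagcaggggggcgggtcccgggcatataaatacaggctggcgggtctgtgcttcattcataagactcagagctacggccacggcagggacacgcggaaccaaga

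In DUSP1 the full element starts 125 bases before the start site, and of 4 TGACG cores those 125 and 122 bases before the start site are its 2 strands, 1 lies 111 bases before and 1 further upstream. EGR1 holds TGACG cores 135 and 66 bases and CArG boxes 105 and 83 bases before its start site, and FOSB 1 TGACG core 60 bases before. Of the 20 list members with a promoter in the RefSeq table used, 13 (65%) held TGACG, as did 24.6% of all 35114 promoters of this length. The full element was in 3 (15%), against 1.85% of all promoters, and a CArG box in 2 (10%), EGR1 and SRF, against 1.29%. These are matches of letters and describe the list, which was written for genes of this class.

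**Figure D2:**
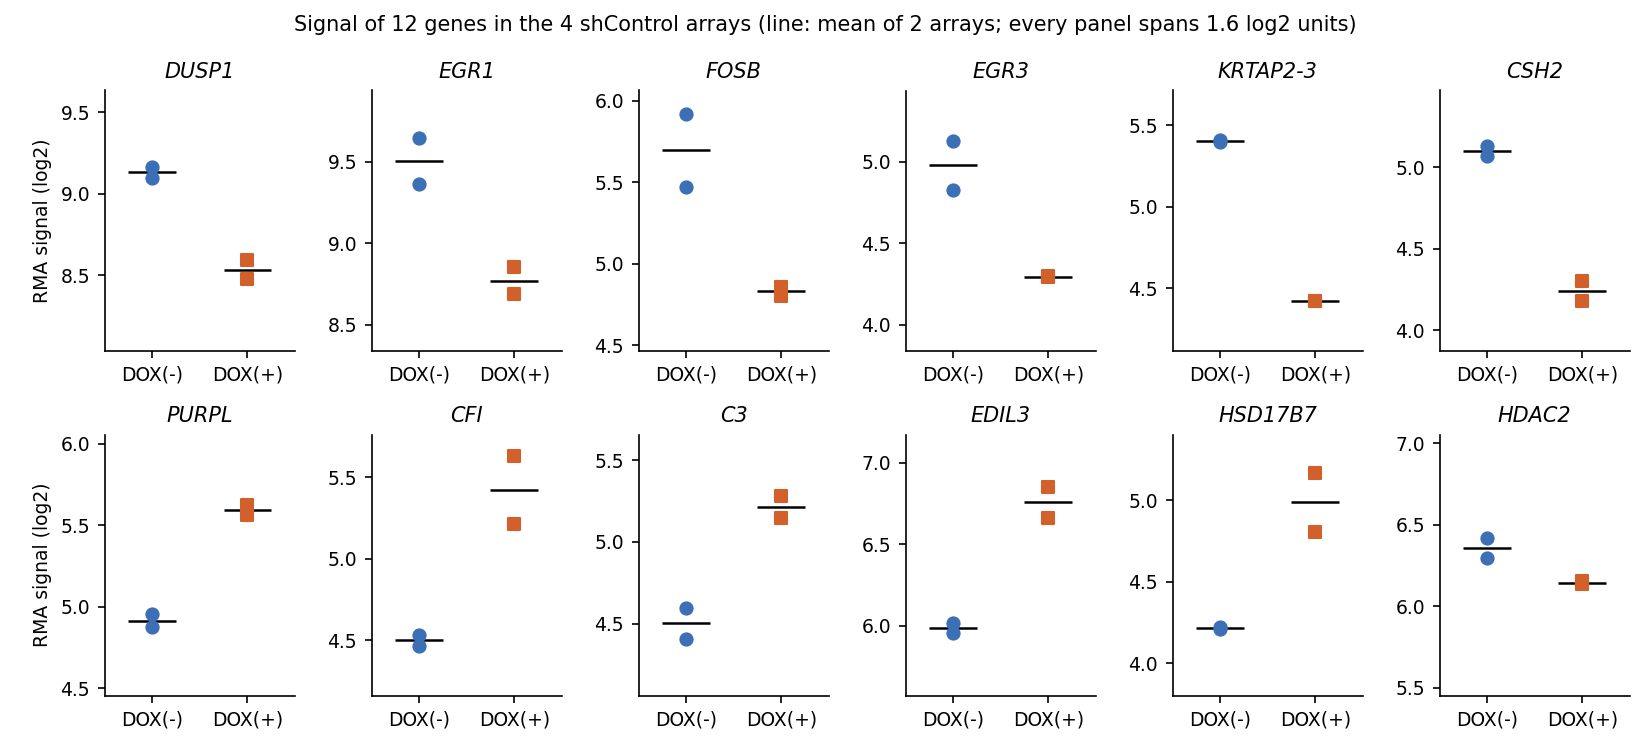
Log2 RMA signal of 12 genes in the 2 untreated (blue circles) and 2 treated (orange squares) shControl arrays, with a line at each group mean and the same span of the vertical axis in every panel. DUSP1, EGR1, FOSB, EGR3, KRTAP2-3 and CSH2 lie lower and PURPL, CFI, C3, EDIL3 and HSD17B7 higher in both treated arrays, and HDAC2 differs by less, with a log2 fold change of -0.21. Apart from DUSP1, EGR1, PURPL and HDAC2, these genes were picked from those whose groups did not overlap.

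Genes that respond to ERK, the kinase upstream of many immediate early genes, had no common direction. Of 11 measured, 7 were lower and 4 higher, with a median of -0.05. DUSP5, a nuclear ERK phosphatase, read 7.17 and 7.05 untreated and 6.35 and 6.82 treated (log2 fold change -0.53), and HBEGF, an EGF receptor ligand, differed by -0.35. DUSP4 and DUSP6, phosphatases of the same family, had higher signals in both treated arrays, with log2 fold changes of 0.30 and 0.19. SPRY2 and EREG were at -0.01 and 0.02.

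Genes of cholesterol and fatty acid synthesis, the targets of the SREBP transcription factors, had mostly higher signals in the treated cells. Of 18 measured genes 15 were higher and 3 lower, with a median log2 fold change of 0.31. At an unadjusted p under 0.05, 8 were higher, a call made in that direction in 3.06% of all clusters, and 0 lower, and 0 passed limma's adjustment. In 14 of the 18 (77.8%) both treated arrays lay above both untreated arrays, as in 17.9% of all clusters. The median deviation per array was -0.10 and -0.16 in the untreated and 0.14 and 0.13 in the treated arrays. The count of 8 became 5 without shControl DOX(-) replicate 1, 4 without shControl DOX(-) replicate 2 and 4 without shControl DOX(+) replicate 2.

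HSD17B7, a reductase late in the pathway, read 4.22 and 4.21 untreated and 5.17 and 4.80 treated (log2 fold change 0.77, standard error 0.185, adjusted p = 0.683 from limma). SCD, which desaturates fatty acids and is among the brightest genes of the table, read 10.66 and 10.83 untreated and 11.13 and 11.25 treated (log2 fold change 0.45). DHCR7, which makes cholesterol in the last step, read 7.94 and 7.98 untreated and 8.39 and 8.32 treated (log2 fold change 0.39). In all 3 genes the groups were apart by more than the replicates were, but all 3 were named for their small p-values within the list.

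FASN, the fatty acid synthase, differed by 0.36, the sterol sensor partner INSIG1 by 0.34, SQLE and MSMO1 of the sterol branch by 0.34 and 0.35, and the regulators SREBF1 and SREBF2 by 0.38 and 0.35 on the log2 scale. The early mevalonate enzymes IDI1, FDPS and MVK had overlapping arrays, with -0.01, -0.06 and -0.11.

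**Figure D3:**
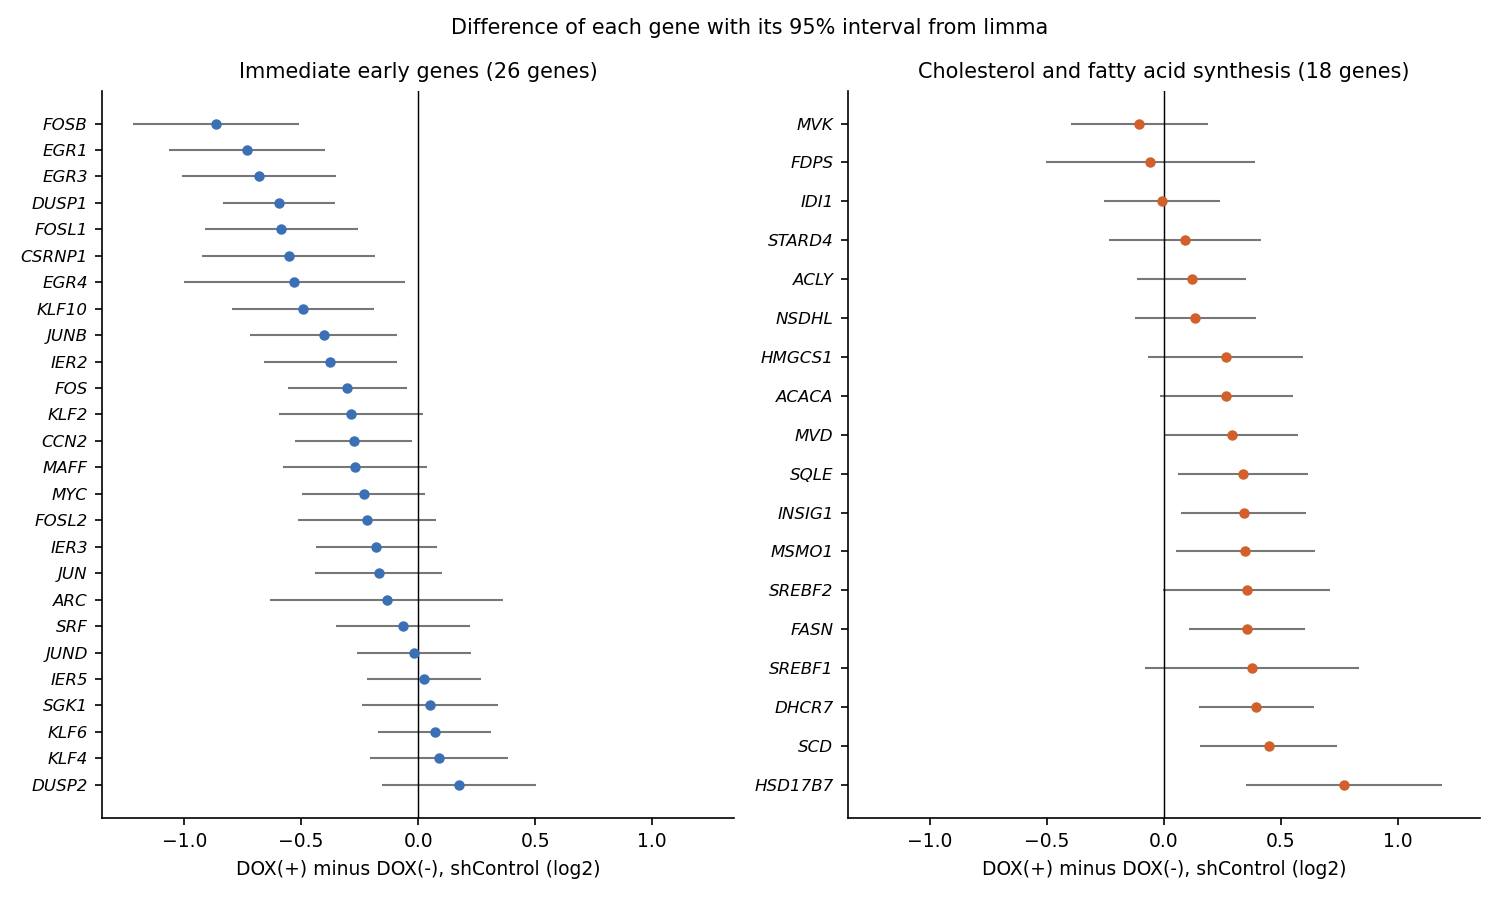
Log2 difference between treated and untreated shControl cells for each of the 26 immediate early genes (left) and 18 cholesterol and fatty acid synthesis genes (right), with the 95% interval from limma as a bar. The intervals of 12 genes on the left lie wholly below 0 and those of 8 genes on the right wholly above it, without adjustment for the number of genes.

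The clustered beta protocadherins and the complement genes also had higher signals, and both lists were singled out after their values were seen. All 16 measured clustered beta protocadherins, neuronal adhesion proteins encoded side by side, were higher, with a median of 0.28. At an unadjusted p under 0.05 there were 6 (3.06% of all clusters were higher at that p), and in 12 (75%) the groups did not overlap, against 17.9% of all clusters in that direction. PCDHB12 read 5.06 and 5.60 untreated and 6.20 and 6.26 treated (log2 fold change 0.90). PCDHB14 read 6.52 and 6.47 untreated and 6.87 and 7.03 treated (0.46), and PCDHB10 6.88 and 6.78 untreated and 7.28 and 7.22 treated (0.42). These genes are similar in sequence, so that their probes may share signal. The count of 6 became 2 without shControl DOX(-) replicate 2 and 3 without shControl DOX(+) replicate 1.

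Of 18 measured complement components and regulators, 15 were higher and 3 lower, with a median of 0.14. The median was 0.23 without shControl DOX(-) replicate 2 and 0.33 among clusters at or above the median signal. At an unadjusted p under 0.05, 6 were higher and 0 lower, against 3.06% and 2.34% of all clusters. CFI, the protease that inactivates C3b and C4b, read 4.47 and 4.53 untreated and 5.63 and 5.21 treated (log2 fold change 0.92, standard error 0.184). C3, the central component, read 4.40 and 4.60 untreated and 5.15 and 5.28 treated (0.71). The groups of both genes were apart, which the rule that picked them required.

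C4A and C4B, nearly identical genes whose probes cannot be told apart with certainty, both differed by 0.56, the receptor C5AR1 by 0.52 and the chaperone CLU by 0.38. CFP was the lowest, at -0.27. With any 1 array left out the count of 6 stayed at 5 or 6.

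Among single genes outside these lists, KRTAP2-3, a keratin-associated protein of hair, had the largest lower signal, 5.41 and 5.40 untreated and 4.42 and 4.42 treated (log2 fold change -0.98, standard error 0.142, adjusted p = 0.550 from limma). Its replicates were almost equal within each group, but it was picked for a large difference and a small p. CSH2, a placental lactogen of a family of near-identical genes, read 5.13 and 5.07 untreated and 4.30 and 4.18 treated (-0.86).

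SMAD7, an inhibitor of TGF-beta signalling, read 5.45 and 5.74 untreated and 5.03 and 4.99 treated (-0.59). The long non-coding RNA LINC00707 differed by -0.67, the pseudogene DPY19L1P1 by -0.64 and UBXN11, a UBX domain protein, by -0.59.

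On the higher side, EDIL3, a secreted integrin ligand, read 5.95 and 6.01 untreated and 6.66 and 6.85 treated (log2 fold change 0.78, standard error 0.120, adjusted p = 0.550 from limma). CEMIP, which takes part in hyaluronan breakdown, read 5.86 and 5.81 untreated and 6.42 and 6.57 treated (0.66). NRP2, a co-receptor for semaphorins and VEGF, read 5.06 and 4.93 untreated and 5.56 and 5.71 treated (0.64).

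In each of these the treated arrays lay above the untreated ones, which the rule that picked them required. RGS16, which ends G protein signalling, differed by 0.68, SMIM3, a small membrane protein, by 0.70, KRT15, a keratin, by 0.65, FSIP2, a protein of the sperm tail, by 0.74 and BEGAIN, a protein of neuronal synapses, by 0.73. A second cluster of FSIP2, also of low signal (mean 2.28), had a log2 fold change of 0.13. In all, 153 of the 14884 genes passed a joint filter, 105 of them higher and 48 lower with doxycycline. The filter asked for groups that did not overlap, an unadjusted p under 0.01 and a higher group mean at or above the table median. The number expected to pass it by chance was not computed, and 0 genes passed limma's adjustment, so 153 is not a count of responding genes. Only the treated group of BEGAIN and only the untreated group of UBXN11 and DPY19L1P1 reached that median, so these passed the filter through the group where they were high.

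PURPL read 4.95 and 4.88 in the untreated and 5.63 and 5.56 in the treated arrays. The gap between the groups was far larger than that between replicates. The log2 fold change was 0.68 (standard error 0.105, 95% interval 0.44 to 0.92, adjusted p = 0.550 from limma). Its promoter, shown because it holds letters that p53 is known to bind, carries in capitals 2 adjoining p53 element repeats, 127 and 117 bases before the start site.

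PURPL promoter (chr5:27472042-27472341, plus strand): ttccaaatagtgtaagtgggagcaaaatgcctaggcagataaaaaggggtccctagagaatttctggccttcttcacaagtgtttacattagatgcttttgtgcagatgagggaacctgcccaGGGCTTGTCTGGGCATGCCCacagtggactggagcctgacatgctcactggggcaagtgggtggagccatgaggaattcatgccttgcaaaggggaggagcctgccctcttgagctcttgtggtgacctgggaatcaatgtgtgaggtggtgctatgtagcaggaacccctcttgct

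By sign alone the p53 targets had no common direction. Of 32 listed genes 18 were measured, PURPL included, 9 of them higher and 9 lower, with a median of -0.03. All 9 lower genes (50%) and 4 higher ones (22.2%) had groups that did not overlap, against 17.9% of all clusters each way. At an unadjusted p under 0.05, PURPL and SUSD6 (0.36) were higher and the kinase PLK3 (-0.36) lower, against 3.06% and 2.34% of all clusters. The apoptosis genes BAX, PMAIP1 and BBC3 had log2 fold changes of -0.29, -0.16 and 0.15. A p53 element repeat was in 3 of the 16 promoters of the list that were found, those of PURPL, AEN and PLK2 (18.8%), against 6.63% of all promoters.

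Genes of the mitochondrial ribosome and of oxidative phosphorylation differed little in size, though more of them were lower than higher. Of the 73 mitochondrial ribosome genes, 51 were lower and 22 higher, with a median of -0.07, and all 73 intervals were within 2-fold. At an unadjusted p under 0.05, 2 were lower and 0 higher, against 2.34% and 3.06% of all clusters. Of 27 measured nuclear genes of the respiratory chain, 19 were lower and 8 higher, with a median of -0.04. Groups did not overlap in 8 lower genes (29.6%) and 1 higher gene (3.7%), against 17.9% of all clusters each way. Mitochondrial translation factors, proteases and chaperones (19 measured) had a median of -0.03. The unadjusted limma p was under 0.05 in 1 gene of the respiratory chain, COX6C (-0.28), and in 0 of the latter list. The genes of the mitochondrial genome have no cluster of exactly 1 symbol and were not analysed here.

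ATF4, the transcription factor of the integrated stress response, was at -0.05, and of 21 genes of that response 15 were higher and 6 lower, with a median of 0.10. The highest were VLDLR, a lipoprotein receptor (0.49), DDIT4, an inhibitor of mTOR (0.37), and AARS1, the alanyl-tRNA synthetase (0.29). All 3 were at an unadjusted p under 0.05, where 3.06% of all clusters were higher. The median became 0.07 without shControl DOX(+) replicate 1, and the count of 3 became 1 without shControl DOX(-) replicate 1 and 0 without shControl DOX(+) replicate 1. Of 25 matrix metalloproteases and inhibitors 18 were higher and 7 lower (median 0.09), with MMP13, a collagenase, at 0.56, the inhibitor TIMP3 at 0.45 and MMP23B at -0.42.

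Mitosis and DNA replication genes had slightly lower signals in nearly all members. All 29 mitosis genes were lower (median -0.13), in 19 (65.5%) without overlap of the groups, and 23 of 24 replication genes (median -0.17), in 15 (62.5%) without overlap, against 17.9% of all clusters in that direction. At an unadjusted p under 0.05 there was 1 mitosis gene, KIF11, a spindle motor (-0.27), and there were 2 replication genes, GINS1 and MCM10 (both -0.32). With 2.34% of all clusters lower at that p, the mitosis count is near the background.

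Single arrays moved these counts, and the mitosis median became -0.09 without shControl DOX(-) replicate 1. The median deviation of the replication list was 0.14 and 0.03 in the untreated and -0.05 and -0.12 in the treated arrays. That of the mitosis list was 0.10, 0.02, -0.04 and -0.09 in the same order. Untreated replicate 2 and treated replicate 1 thus lay close together, while among same-numbered arrays the treated one was lower in both lists. The count of 2 replication genes became 0 without shControl DOX(-) replicate 1 or without shControl DOX(+) replicate 2 and 5 without shControl DOX(-) replicate 2. That of 1 mitosis gene became 0, 2 and 0 without shControl DOX(-) replicate 1, shControl DOX(+) replicate 1 and shControl DOX(+) replicate 2. The cell cycle was not measured, and in bulk RNA fewer cells that express a gene cannot be told apart from less RNA per cell.

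Of 29 listed extracellular matrix genes 12 were measured, and 11 of these were higher (median 0.17). The proteoglycan VCAN, which read 6.34 and 6.22 untreated and 6.78 and 6.87 treated (0.55), led, followed by THBS1, thrombospondin (0.36). Interferon-stimulated genes were higher in 17 of 27 (median 0.11). At an unadjusted p under 0.05, 4 were higher, where 3.06% of all clusters were. These were TLR3, a sensor of viral RNA (0.49), BST2 (0.46), IFIT1 (0.40) and HERC6 (0.31). The median became 0.06 without shControl DOX(-) replicate 2, 0.04 without shControl DOX(+) replicate 1 and 0.07 among clusters at or above the median signal. The count of 4 became 2 without either untreated array or without shControl DOX(+) replicate 2, and ISG15 was at 0.00.

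Glycolysis genes (9 measured of 23 listed) and hypoxia-inducible genes (15 of 21) had small medians, -0.04 and -0.02. Of 17 listed genes of the RNA interference machinery 8 were measured, 4 higher and 4 lower. Of 18 histone deacetylases and sirtuins 9 were higher and 9 lower, and HDAC5 alone was at an unadjusted p under 0.05 (0.31). Markers of neurons, oligodendrocytes, leukocytes, endothelium and epithelium (3, 3, 3, 4 and 5 measured) had 1 gene in all at an unadjusted p under 0.05, and their part in the other differences was not tested. Of all clusters, 3.06% were higher and 2.34% lower at that p.

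**Figure D4:**
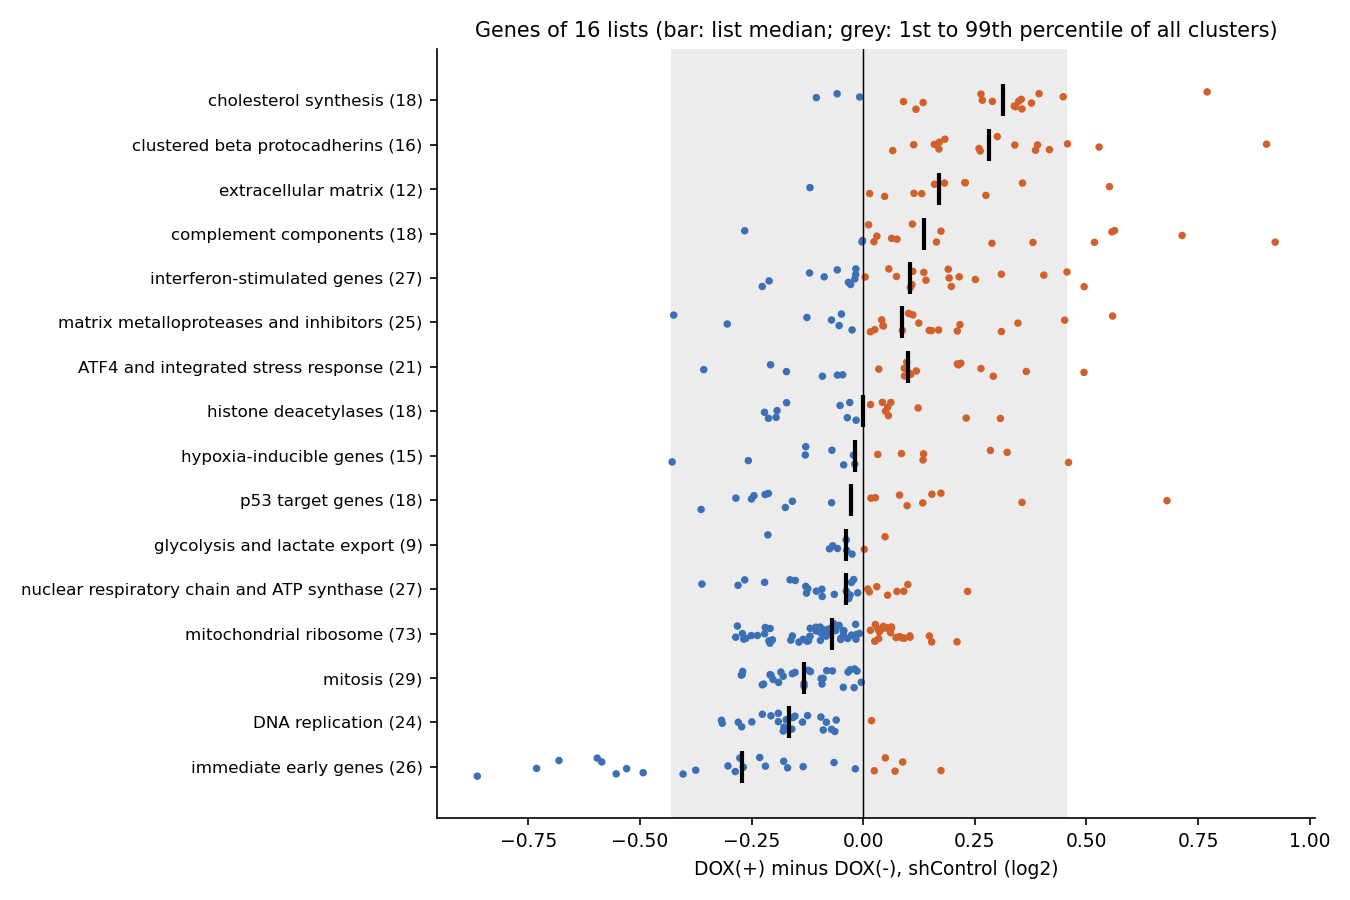
Log2 difference between treated and untreated shControl cells for the genes of 16 lists, 1 point a gene (orange above 0, blue below), with the list median as a black bar and the 1st to 99th percentile of all clusters in grey. The medians run from -0.27 for immediate early genes to 0.31 for cholesterol synthesis. The grey range of -0.43 to 0.46 is that of single clusters and does not measure the spread of list medians.

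MicroRNA genes were read by probes to their precursors, so these values are not levels of the mature RNA. Of 1072 measured, 532 were higher and 539 lower, 32 and 37 of them at an unadjusted p under 0.05. Of all clusters, 3.06% were higher and 2.34% lower at that p. The share of higher microRNA genes was near the former, and that of lower ones somewhat above the latter. Mature RNAs of the 4 genes that were highest by the rule used are shown from RefSeq, for MIR196B the 5p arm only, with the seed, bases 2 to 8, in capitals.

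hsa-miR-3189-5p: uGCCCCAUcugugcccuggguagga
hsa-miR-3189-3p: cCCUUGGGucugaugggguag
hsa-miR-196b-5p: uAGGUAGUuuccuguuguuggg
hsa-miR-421: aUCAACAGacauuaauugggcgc
hsa-miR-544b: aCCUGAGGuugugcauuucuaa

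The seeds of these 5 RNAs are all different. MIR3189, which lies in an intron of GDF15, read 4.21 and 4.24 untreated and 5.28 and 4.86 treated (log2 fold change 0.84, standard error 0.247, adjusted p = 0.736 from limma). Its host GDF15, a stress cytokine, read 7.60 and 7.72 untreated and 7.74 and 7.78 treated (0.10, 95% interval -0.14 to 0.34).

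Both were higher in both treated arrays, and the host by less than its untreated replicates differed. MIR196B, of the HOXA cluster, read 6.33 and 6.36 untreated and 6.89 and 7.16 treated (0.68). MIR421 and MIR544B differed by 0.65 and 0.63. On the lower side MIR3116-1, MIR4635, MIR4781 and MIR631 had log2 fold changes of -0.68, -0.51, -0.48 and -0.45. A second, dimmer cluster of MIR3116-1, whose arrays overlapped, had a log2 fold change of 0.08. Only the untreated group of MIR3116-1 and MIR4635 reached the median signal of the table.

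The same drug step was compared in shHDAC2 cells for the 33 genes named by size or p in shControl cells or given beforehand. It gave 2421 rises (15% of clusters) and 2510 falls (15.6%) at an adjusted p under 0.05 there, and the 2 responses differed by limma's interaction test in 3156 clusters (19.6%). These values rest on the shHDAC2 DOX(-) arrays that stood apart, and the genes were chosen by shControl values that also enter the interaction test. Of the 33 genes, 21 changed in shHDAC2 cells, 10 up and 11 down, and 21 had the same sign in both constructs. The responses differed in 18.

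PURPL rose in shHDAC2 cells from 5.25 and 5.30 to 5.87 and 5.94 (log2 fold change 0.63, adjusted p = 0.00170 from limma), and the difference from the shControl response was -0.05 (95% interval -0.39 to 0.29). DUSP1 fell there from 9.73 and 9.69 to 8.82 and 8.80 (-0.89, adjusted p = 2.25e-04 from limma), a difference between responses of -0.30 (adjusted p = 0.222). FOSB fell by 1.38 (difference -0.52, adjusted p = 0.151).

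The brighter cluster of EGR1 did not pass in shHDAC2 cells (-0.32, adjusted p = 0.140 from limma), with a difference of 0.41 between the responses (adjusted p = 0.229). Its second, dimmer cluster fell there (-0.54, adjusted p = 0.00753 from limma), with a difference of 0.13 (adjusted p = 0.679). Over the immediate early list 4 genes rose and 11 fell in shHDAC2 cells, and 11 of the 26 responses differed. Over all clusters these shares were 15%, 15.6% and 19.6%. FOS fell by 2.36 there and differed between responses by -2.06, whereas KLF2 rose by 0.81 and differed by 1.09. In the cholesterol list 13 genes rose and 1, INSIG1, fell in shHDAC2 cells (median 0.66), and 8 of the 18 responses differed.

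**Figure D5:**
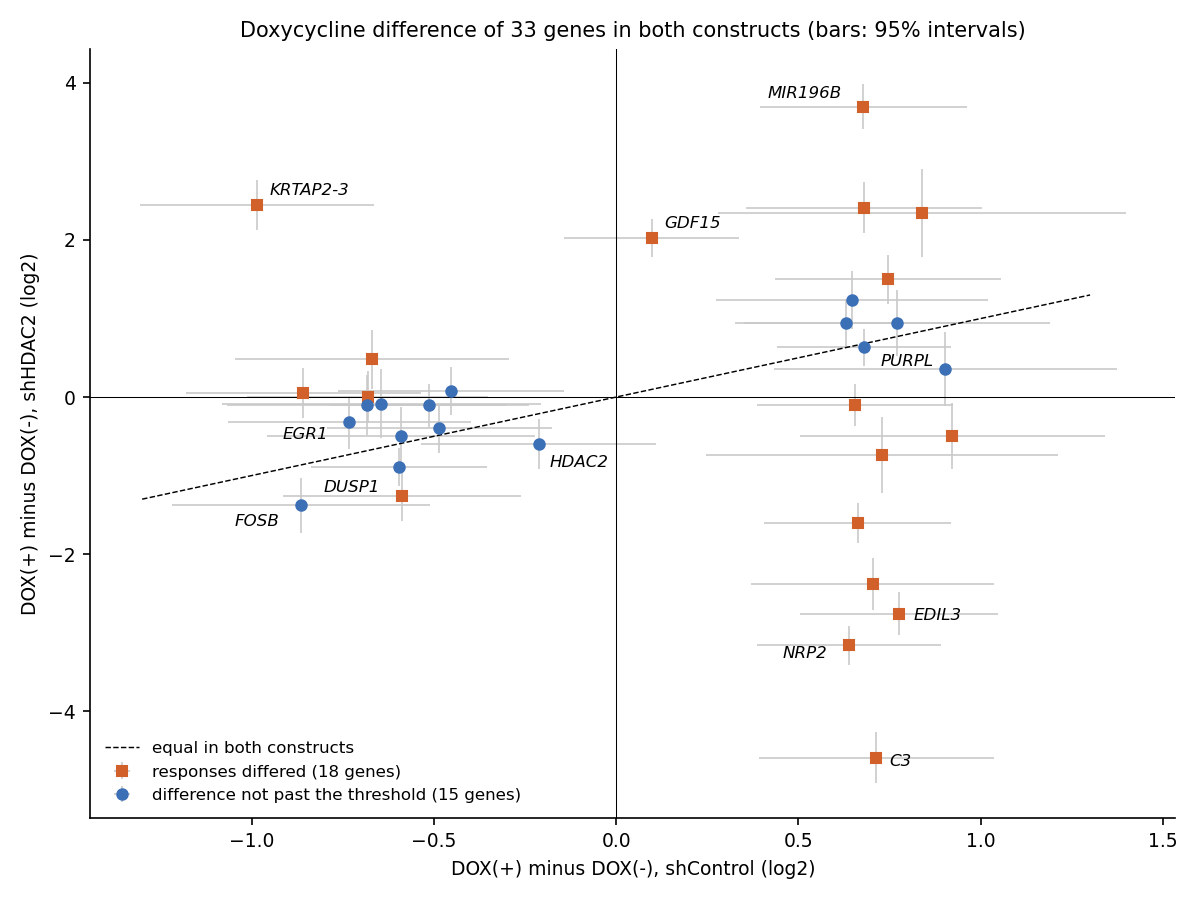
Log2 difference between treated and untreated cells in shControl (horizontal axis) and shHDAC2 cells (vertical axis) for the 33 named genes, with 95% intervals from limma as bars and a dashed line where both are equal. Orange squares are the 18 genes whose responses differed at an adjusted p under 0.05, and PURPL, DUSP1, EGR1, FOSB and HDAC2 are among the 15 blue circles.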

How the data were processed

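Total RNA was labelled with the GeneChip WT kits and hybridized to 8 arrays, 2 per group. The methods name the RNeasy Plus Mini kit and Trizol for extraction, the labels Trizol. The log2 signals deposited by the authors are RMA values from Affymetrix Expression Console, background-corrected and quantile-normalized, which would hide a shift common to most transcripts. Not given in the sources used here are tool versions and the build of the probe annotation. Of 53617 rows, 37519 lack exactly 1 gene symbol and were left out. Differences were fitted with limma 3.58.1 in R 4.3.3, with 1 mean per group over 8 arrays (4 residual and 4.83 prior degrees of freedom), two-sided, with Benjamini-Hochberg adjustment over 16098 clusters at 0.05. The steps were tested on simulated data.

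Where a gene has several clusters, the brightest on average stands for it. The genes, lists and tests were chosen with earlier results of these data known. The rule for named genes took HDAC2, DUSP1, EGR1, PURPL, GDF15 and MIR3189, then, among clusters without overlap of the arrays, with an unadjusted p under 0.01 and a higher group mean at or above the table median, the 10 largest differences each way, 4 each way among small RNAs and the 5 smallest p-values each way, plus up to 4 members of each list. Other list members were named after their values were seen. Lists were described by counts and medians with no set test. Listed genes without a cluster of exactly 1 symbol were not measured, so most lists are covered only in part, such as 26 of 34 immediate early and 18 of 25 cholesterol genes. Alternatives left out each array or the shHDAC2 DOX(-) arrays, used only the 4 shControl arrays, the replicate number as a block, other filters, scalings and variance models, or the unpaired test of the methods. Promoters and microRNAs are from RefSeq (GRCh38.p14). The labels name no array batch or scan date. The number of arrays limits the precision.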

Additional observations from a re-analysis of the deposited data

Results flagged for a closer look

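For 18 of the 33 named genes the doxycycline response of shHDAC2 cells differed from that of shControl cells by limma's interaction test at an adjusted p under 0.05. The genes had been chosen for their shControl values, which enter this test, and every difference rests on the shHDAC2 DOX(-) arrays that stood apart from the other 6. In 6 genes that were higher with doxycycline in shControl cells, the signal fell in shHDAC2 cells. The difference of the responses, shHDAC2 minus shControl on the log2 scale, was -5.31 for C3 (adjusted p = 9.71e-07), -3.80 for NRP2, -3.53 for EDIL3, -3.09 for SMIM3, -2.26 for CEMIP and -1.47 for BEGAIN. C3 read 8.86 and 8.88 in untreated and 4.11 and 4.45 in treated shHDAC2 cells, and the shControl arrays, at 4.40 to 5.28, lay near the latter. CFI and KRT15, also higher in treated shControl cells, did not pass in shHDAC2 cells, with differences of -1.42 and -0.76.

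In 1 gene that was lower in treated shControl cells, KRTAP2-3, the signal rose in shHDAC2 cells, from 3.66 and 4.08 to 6.30 and 6.34, a difference of 3.43. SMAD7 fell further in shHDAC2 cells (difference -0.67). EGR3, CSH2 and LINC00707, lower in treated shControl cells, did not pass in shHDAC2 cells, with differences of 0.68, 0.91 and 1.15. Larger rises in shHDAC2 cells gave differences of 0.75 for FSIP2, 1.51 for MIR3189, 1.73 for RGS16, 1.93 for GDF15 and 3.02 for MIR196B. MIR196B read 2.88 and 2.89 in the shHDAC2 DOX(-) arrays and 6.33 to 7.16 in the other 6. The part of the arrays that stood apart in these differences was not tested.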

How the results depend on the processing

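The count of 0 called clusters held in all alternatives but 1: with a variance trend and robust moderation limma called 1 cluster, DUSP1 (log2 fold change -0.60, adjusted p = 0.0431, against 0.550 in the main setting and up to 0.9999 in the others). With any 1 shControl array left out the count stayed at 0, and that of clusters at an unadjusted p under 0.05 ranged from 584 to 937, against 868. It was 967 on the 4 shControl arrays alone, 922 without the shHDAC2 DOX(-) arrays, 708 among the clusters at or above the median signal and 2420 over every row of the table, where more clusters were tested. Of 494 values of the 33 named genes under the alternatives, 493 kept their sign and side of the threshold, 0 reversed and 1, the DUSP1 value above, passed it. Among those genes 14 to 19 responses differed between the constructs with 1 array left out. Samples share replicate numbers, and the deviations of same-numbered arrays correlated positively (r = 0.21 for the shControl groups, 0.0067 to 0.12 for the others). In shControl cells 0.137% and 0.13% of clusters differed over 2-fold between same-numbered treated and untreated arrays. Between differently numbered ones 0.36% and 0.242% did. The labels do not say that the numbers pair the arrays, and the main fit did not use them. With the replicate block 0 clusters were called and 1051 had an unadjusted p under 0.05, against 868 in the main fit. For the 9 lists recomputed under the alternatives (immediate early, cholesterol, mitosis, replication, beta protocadherin, complement, matrix, interferon and integrated stress response genes), the median kept its sign in every alternative run, and the complement median was 0.33 among clusters at or above the median signal. The medians of the other lists were not recomputed. Counts of list genes at an unadjusted p under 0.05 moved by over 1.5 times in several, also by the variance trend (7 replication, 6 mitosis, 5 integrated stress response and 4 matrix genes). The cause was not tested. These list alternatives were chosen after seeing the data. With 2 arrays a side the median 95% interval of a cluster reached 0.31 on the log2 scale to either side.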
